A study of Caenorhabditis elegans with 4 samples.

Results

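Chromosome II carried 295 of the 1997 SMC-4 peaks of the whole-series list, a list with 1989 nuclear peaks over 6 chromosomes. The members were taken by chromosome name alone, so neither their score nor their width entered the choice. SMC-4 is one of the paired ATPases at the core of condensin, a ring-shaped complex that holds loops of DNA and shortens chromosomes for division. In Caenorhabditis elegans it belongs to both mitotic condensins, while the dosage compensation complex of the X chromosome uses DPY-27 in its place. Worm autosomes have no single centromere; their gene-rich central parts recombine little, and their outer arms recombine more and hold more repeats.

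Binding was mapped by chromatin immunoprecipitation and sequencing (ChIP-seq) in mixed-stage embryos of strain N2, the wild type, taken from gravid adults in liquid culture, at 20 °C and with males and hermaphrodites together. The groups were 2 SMC-4 immunoprecipitates, made with an affinity-purified rabbit polyclonal antibody, and 2 input DNA samples, whose values were not analysed here. All groups share strain, stage and cross-linking, and a lysate of whole embryos mixes dividing and non-dividing cells of every tissue. No depletion of SMC-4 or second antibody was analysed, so a peak is a place called by the peak caller and not a site shown to need the protein. Alongside the whole-series list, the replicate 1 list held 174 peaks on II (of 1174 nuclear) and the replicate 2 list 46 (of 296). The lists give no read counts and the depth behind a peak is unknown; intervals below cover counting error of peaks only. Nothing in the labels says that the replicates were separate cultures. Every test below counts each peak as its own observation although neighbours are related, so the p-values are too small by an amount that was not measured.

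Chromosome II did not stand out in the number or the strength of its peaks. Its density was 19.3 peaks per Mb (exact Poisson interval 17.2 to 21.7), within the 13.6 to 27.1 of the other chromosomes, and 14.8% of nuclear peaks lay on 15.2% of the span (two-sided exact binomial p = 0.662). Peak scores, the authors' own values on a scale not stated, had a median of 6.51 and ran from 1.32 to 51.7, with 50% of peaks between 4.12 and 10.7. Of the 295 peaks, 151 (51.2%) scored above the median of all nuclear peaks, against 49.8% of the 1694 peaks on the 5 other chromosomes (two-sided Fisher's exact p = 0.659). None of the 20 highest whole-series scores, 6 of the 50 highest and 14 of the 100 highest belonged to II, while each replicate list had 1 II peak among its 20 highest. Replicates 1 and 2 had 3 and 4 II peaks among their 50 highest, fewer than its 14.8% and 15.5% of their peaks. Among their 200 highest each had 34 (17%). Above the 90th percentile of replicate 2 were 4.35% of II peaks and 11.2% of the others, which did not pass (Fisher's exact p = 0.192).

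Where the peaks lay along the chromosome set II apart from the other autosomes. Cut at 5.09 and 10.2 Mb into 3 sections of 33.3% of its 15.3 Mb span each, II held 75 peaks on the left, 88 in the centre and 132 on the right, or 14.7, 17.3 and 25.9 peaks per Mb. The right section thus held 44.7% of the peaks (Clopper-Pearson interval 39.0 to 50.6), the central section 29.8% (24.7 to 35.4) and the left section 25.4% (20.6 to 30.8). Against an even 33.3%, the right was above (two-sided exact binomial p = 0.000165, adjusted over the 3 sections), the left below (adjusted p = 0.00548) and the centre did not pass (adjusted p = 0.217). The 4 other autosomes together held 31.7% on the right, 36.2% in the centre and 32.1% on the left. The difference between II and those autosomes passed for the right (odds ratio 1.74, two-sided Fisher's exact p = 0.000115, adjusted over the 3 sections), for the centre (0.75, adjusted p = 0.0413) and for the left (0.72, adjusted p = 0.0413). The 3 shares are parts of 1 whole, so a higher share on the right lowers the others. The lower centre and left are therefore not findings separate from the right. The comparison of the centre was planned; those of the outer sections were made after the counts had been seen, and II, with the right, was picked from several chromosomes and sides.

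**Figure D1:**
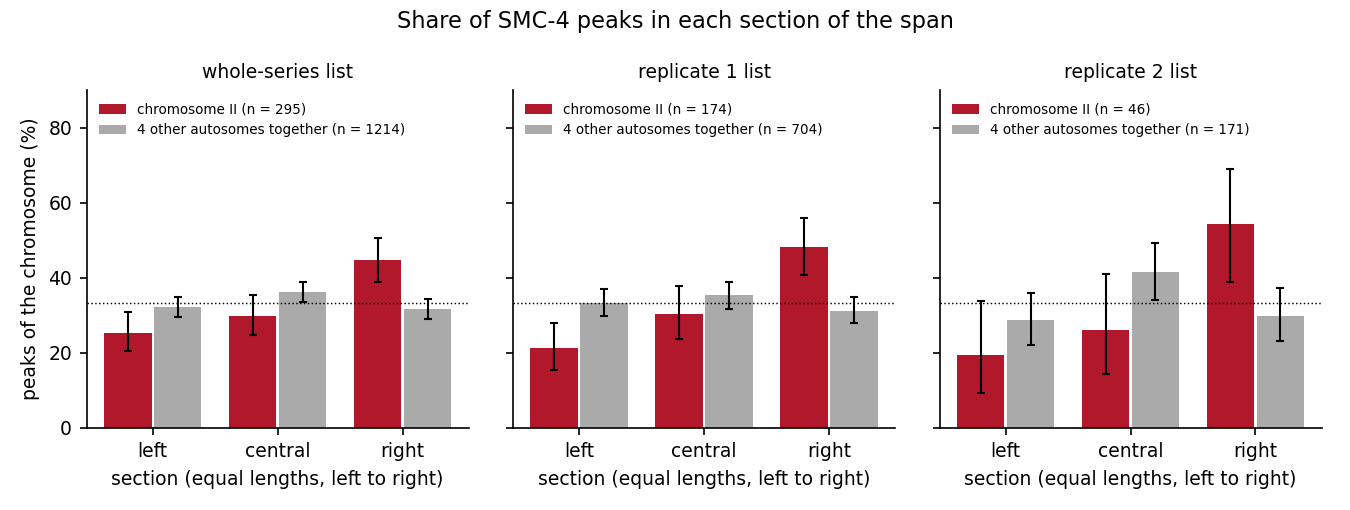
Share of a chromosome's peaks (y axis, percent) in the left, central and right section of the span (x axis), for chromosome II (red) and the 4 other autosomes together (grey), in the whole-series, replicate 1 and replicate 2 lists; bars are shares, whiskers 95% Clopper-Pearson intervals and the dotted line 33.3%. The right section of II stands at 44.7%, 48.3% and 54.3% in the 3 lists, above the grey bars at 31.7%, 31.3% and 29.8%.

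Each replicate list leaned the same way. Replicate 1 placed 84 of 174 peaks (48.3%, interval 40.6 to 55.96) in the right section and 37 (21.3%) in the left, while the 4 other autosomes had 31.3% on the right (Fisher's exact p = 0.000116, adjusted over the sections). Replicate 2 placed 25 of 46 peaks (54.3%, 39.0 to 69.1) on the right and 9 (19.6%) on the left, with 29.8% on the right of the other autosomes (Fisher's exact adjusted p = 0.0087). In the replicates' own lists the left section differed from the other autosomes in replicate 1 (Fisher's exact adjusted p = 0.00273) but did not pass in replicate 2 (0.262), and the centre passed in neither (0.247 in replicate 1 and 0.0924 in replicate 2). Across the 5 other chromosomes taken singly, the right section ran from 26.7% on IV to 34.7% on V in the whole-series list, and no section of any of them reached the share of the right of II, the nearest being the centre of IV with 40.3% (interval 34.6 to 46.2). Other chromosomes were thus uneven as well. By base pairs, the right of II held 48.9% and the centre of IV 46.1% in the whole-series list, and 51.4% and 45.0% in replicate 1. In replicate 2 the right of II held 55.8% of base pairs, below the right of I (64.8%) and the centre of IV (59.2%). The lists overlap, so they do not count as 3 separate observations. With chains of peaks at most 5 kb apart counted once, the right section of II still held 42.6% of 230 places (two-sided exact binomial p = 0.00328).

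In windows of 1 Mb, the 15 complete windows of II held 11 to 34 peaks with a median of 17, close to the 5 to 33 and the median of 17 of the 65 windows of the other autosomes. The fullest were 11 to 12 Mb and 13 to 14 Mb with 34 peaks each, followed by 5 to 6 Mb and 14 to 15 Mb with 24 each. The emptiest were 2 to 3 Mb with 11 peaks, and 1 to 2 Mb and 7 to 8 Mb with 12 each. Both full windows were also the fullest of replicate 1, with 19 and 24 peaks, but they differed in replicate 2, which listed 3 peaks at 11 to 12 Mb and 13 at 13 to 14 Mb. The longest stretch without a whole-series peak ran for 448 kb from 1667120 to 2115413, where neither replicate had a peak either. It was followed by 388 kb from 848776 to 1236553, where replicate 1 had 2 peaks, and 340 kb from 5845011 to 6185359, where no replicate peak lay wholly inside, although 2 replicate 1 peaks and 1 replicate 2 peak reached in at its edges.

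**Figure D2:**
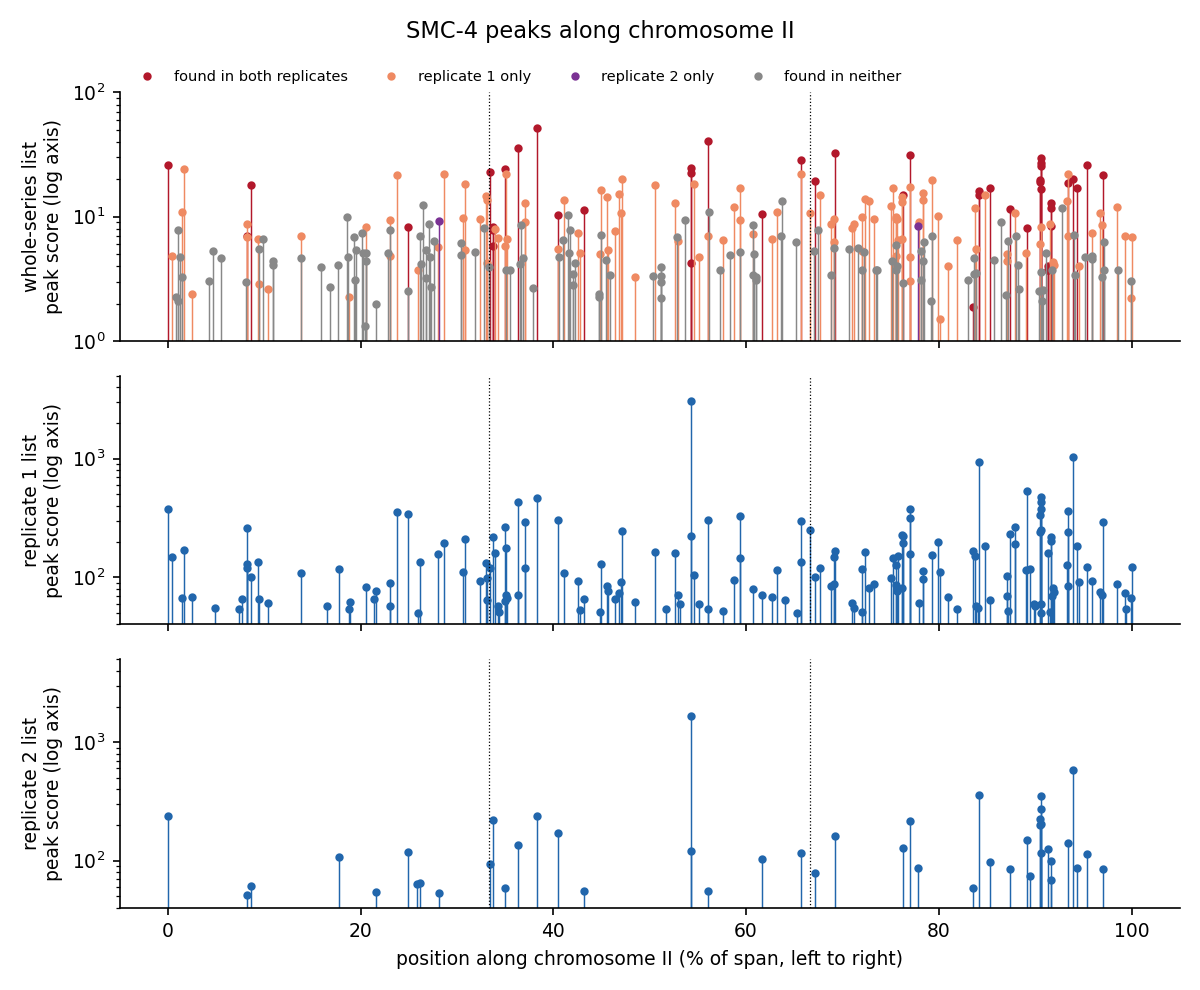
Score of every chromosome II peak (y axes, log scale, the authors' values, not comparable between the top panel and the others) against its position in percent of the span (x axis), in the whole-series list (top, coloured by overlap with the replicates), the replicate 1 list and the replicate 2 list; dotted lines mark the sections. The 132 peaks of the right section outnumber the 75 of the left, and 15 of the 46 peaks found in both replicates lie between 13 and 14 Mb, near 90% of the span.

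Peaks of II found in the replicates scored higher than the others. A replicate 1 peak overlapped 161 of the 295 peaks by at least 1 bp (54.6%, interval 48.7 to 60.4), where 57.4% of all nuclear peaks were overlapped. A replicate 2 peak overlapped 48 (16.3%, 12.2 to 21.0, against 16.3% of all), both replicates overlapped 46 (15.6%, 11.6 to 20.2, against 15.3% of all), and neither overlapped 132 (44.7%, 39.0 to 50.6, against 41.6% of all). None of these 4 shares differed detectably from those of the 5 other chromosomes (adjusted Fisher's exact p from 0.615 to 1). The 46 peaks found in both replicates had a median score of 17.0 and a median width of 449.5 bp. The 115 found by replicate 1 only had medians of 8.66 and 266 bp, and the 132 found by neither had 4.5 and 181 bp. The groups overlapped in score, from 1.88 to 51.7 for both and from 1.32 to 13.4 for neither, and a wide peak is overlapped more easily than a narrow one. The use of the replicates in the whole-series list was not given, so replicate overlap may not be separate support for a peak.

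Overlap climbed with score in replicate 1 throughout and in replicate 2 only near the top. Among the 59 lowest-scoring peaks of II, replicate 1 overlapped 20.3% and replicate 2 overlapped 5.08%. In the middle group of 59, scored 5.27 to 7.77, the shares were 52.5% and 5.08%. Among the 59 highest-scoring they were 98.3% and 47.5%, so that 1 peak of this group, at 9718698 to 9718875 with a score of 13.4, was seen by neither. The next-highest peaks without a replicate lay at 4047942 to 4048147 (12.4) and 14154346 to 14154527 (11.85). At the other end, the weakest peak found in both replicates, 12749821 to 12749987, scored 1.88 and ranked 293 of the 295, although the replicate peaks on it scored 166 in replicate 1, rank 47 of 174, and 58.5 in replicate 2. The 2 next-weakest, at 13940576 to 13940744 and 13940978 to 13941225, scored 3.71 and 3.74 and lay inside single replicate peaks of 1640 and 1374 bp.

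**Figure D3:**
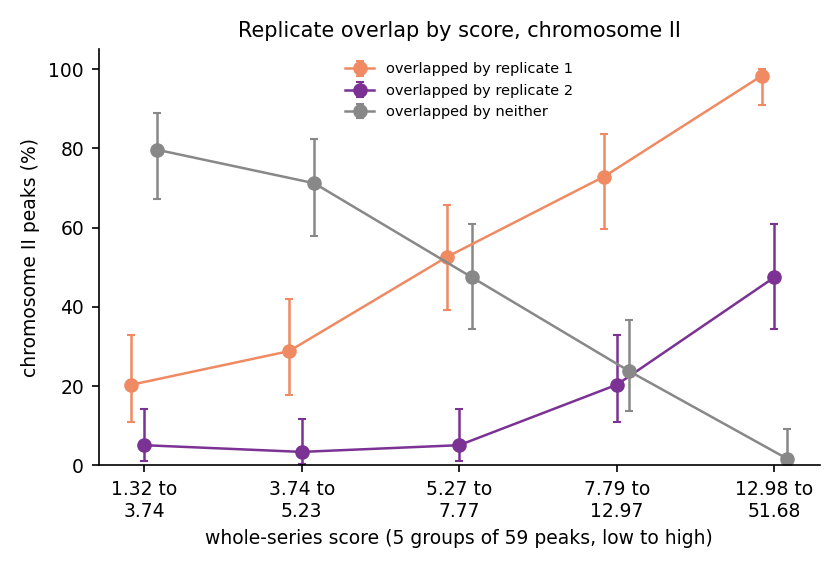
Percent of chromosome II peaks (y axis) overlapped by replicate 1, by replicate 2 and by neither, in 5 groups of 59 peaks ordered by whole-series score (x axis, score range of each group); points are shares and whiskers 95% Clopper-Pearson intervals. Overlap by replicate 1 goes up step by step to 98.3%, while overlap by replicate 2 stays near 5% in the lower 3 groups and reaches 47.5% in the top group.

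Replicate overlap was lowest in the left section. Replicate 1 overlapped 29 of its 75 peaks (38.7%, interval 27.6 to 50.6), 50 of 88 in the centre (56.8%) and 82 of 132 on the right (62.1%). The left section of II stood below the left sections of the 4 other autosomes, where replicate 1 overlapped 57.9% and single chromosomes ran from 55.8% to 61.8% (two-sided Fisher's exact p = 0.0199, adjusted over 12 comparisons made after the data had been seen). Scores did not differ detectably there: 41.3% of the left peaks of II and 44.1% of those of the other autosomes were above the nuclear median (adjusted Fisher's exact p = 0.788). Within II, 41.3% of the left peaks and 54.5% of the other 220 were above it, which did not pass (adjusted Fisher's exact p = 0.104), and the median score was 5.34 on the left, 7.05 in the centre and 6.76 on the right. The part of score in the lower overlap was not tested. Both replicates overlapped 4 of the 75 left peaks (5.33%, 1.47 to 13.1), 15 of the 88 central (17.0%) and 27 of the 132 right peaks (20.5%). Within II the left share was below that of the other 220 peaks, 19.1% (adjusted Fisher's exact p = 0.0125), but it did not differ detectably from the 12.1% on the left of the other autosomes (adjusted p = 0.213).

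**Figure D4:**
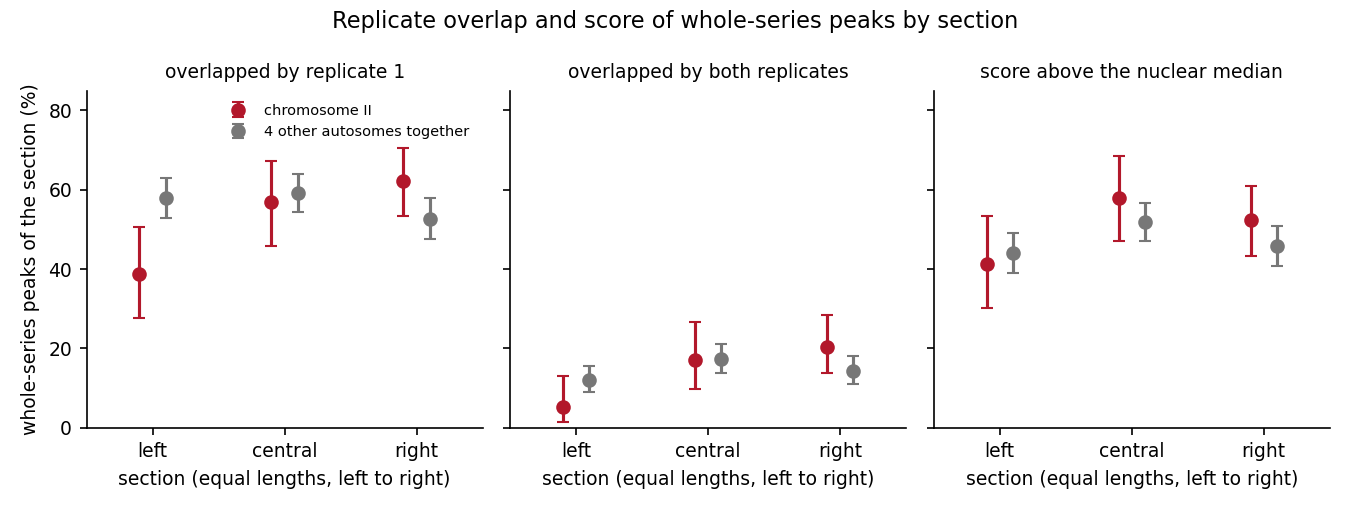
Percent of the whole-series peaks of each section (y axis) that replicate 1 overlapped, that both replicates overlapped, or that scored above the median of all nuclear peaks, by section of the span (x axis), for chromosome II (red) and the 4 other autosomes together (grey); whiskers are 95% Clopper-Pearson intervals. In the left section, overlap by replicate 1 is 38.7% on II and 57.9% on the other autosomes, and the shares above the median score are 41.3% and 44.1%.

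Of the 46 peaks found in both replicates, 27 lay on the right (58.7%, interval 43.2 to 73.0, two-sided exact binomial p = 0.000463), and 15 of these in the window from 13 to 14 Mb alone. Some of the 46 shared a replicate peak, such as the 3 from 13939878 to 13941225, so they are not all separate places. Without the window from 13 to 14 Mb the right held 12 of 31 (38.7%) on 28.7% of the remaining span, which did not pass (exact binomial p = 0.234). For all whole-series peaks the excess passed without it, at 98 of 261 (37.5%, exact binomial p = 0.00201). The window from 11 to 12 Mb, also on the right and just as full with 34 whole-series peaks, was kept in. The share without both windows was not tested. The 132 peaks that neither replicate overlapped had 37.1% on the right, which did not pass (exact binomial p = 0.357).

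The 10 highest-scoring peaks of II were all found in both replicates and were 237 to 1109 bp wide. The leading one, at 5844563 to 5845010 (448 bp), scored 51.7, rank 24 of the whole series; its replicate peaks scored 469.6 and 239 and ranked 6 on II in each list. The second, 8561225 to 8561509 (285 bp), scored 40.7 but ranked 19 on II in replicate 1 (303) and 43 of 46 in replicate 2 (55.6). The third, 5543371 to 5543853, had a score of 35.7, and 435 and 136 in replicates 1 and 2. The next were 10563299 to 10563604 (32.4), 11759177 to 11759627 (31.25) and 13821069 to 13822076 (29.9). Scores of 28.5 and 27.0 belonged to 10033412 to 10033806 and 13826653 to 13827761. The ninth, from base 1 to 247 at the left end, scored 26.0, with 376 and 236 in the replicates, and was the only one of the 10 in the left section. The tenth, 14561655 to 14561891, scored 25.9. The last peak of the chromosome, 15263023 to 15263363, scored 6.86 and was found by replicate 1 only. Its distance from the right end is not known, since the span was taken from the peaks. Over the 46 peaks found in both replicates, Spearman's rho of the whole-series score was 0.422 with replicate 1 and 0.236 with replicate 2. This is a description without a test, between lists whose callers are named differently, MACS and MACS v2. How the replicates entered the whole-series list was not given.

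Between the replicates, replicate 1 overlapped 43 of the 46 replicate 2 peaks of II. Over these 43 pairs rho was 0.731 for score and 0.853 for width, and replicate 1 had the higher score in 40. Width and score went together more closely in the replicate lists (rho 0.763 and 0.771) than in the whole-series list (0.523), again across peaks of 1 list and without a test.

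The highest replicate score of II belonged to a wide region that the whole-series list gave as separate peaks. The region ran from 8288295 to 8292844 in replicate 1 (4550 bp, score 3100, where scores of that list stop) and from 8288313 to 8292784 in replicate 2 (4472 bp, 1669), the highest on II in both. Among all nuclear peaks it was 1 of 5 at the top score in replicate 1 and ranked 4 in replicate 2. In the whole-series list it appeared as 8288357 to 8291002 (2646 bp, score 24.55, rank 12 on II), the widest peak of II in that list, and 8291120 to 8292661 (1542 bp, 22.6, rank 16). Only 2 other places on II reached 2 kb in the replicate lists, and both replicates listed both. The one at 12843665 to 12846192 in replicate 1 (2528 bp, score 939) scored 356 in replicate 2 and held 2 whole-series peaks, the better at rank 41. The one at 5144644 to 5146765 (2122 bp, 219 in replicate 1 and 219.6 in replicate 2) held 3 whole-series peaks, the best scoring 8.22 at rank 111. The rest of the 5 widest whole-series peaks were 14337536 to 14339177 (1642 bp, 20.3), ranked second on II in both replicates, 13598589 to 13599860 (1272 bp, 8.04) and 12844813 to 12846029 (1217 bp, 15.98). In all, 8 whole-series peaks of II were at least 1 kb wide, where the 5 other chromosomes had 8 to 12 each. Of the 8, 6 lay in the right section, which held 44.7% of all II peaks, and none in the left. The 6 were not all separate places, since 12843686 to 12844687 and 12844813 to 12846029 lay inside 1 replicate 1 peak. The 295 peaks covered 89.6 kb, 0.587% of the span.

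Of the 295 peaks, 103 had a neighbour within 5 kb (34.9%, interval 29.5 to 40.7), against 38.2% on the 5 other chromosomes (two-sided Fisher's exact p = 0.298). With peaks within 1 kb merged the shares were 18.7% and 24.4%, with an unadjusted Fisher's exact p of 0.047; adjusted over the 9 alternative settings, in 3 of which II was higher, it was 0.423. The 103 formed 38 clusters, chains of peaks with gaps of at most 5 kb, of which 11 lay on the left, 12 in the centre and 15 on the right; 23 held 2 peaks and 10 held 3. Peaks with a neighbour were found in both replicates in 27 of 103 cases (26.2%), and lone peaks in 19 of 192 (9.90%); on the 5 other chromosomes the shares were 24.4% and 9.65%. Of the 27, 12 shared 5 replicate 1 peaks, so that the 27 rested on 20 replicate 1 peaks, and the 19 lone ones on 19. The median scores on II were 6.95 with a neighbour and 6.43 without.

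The cluster with the most peaks, 9 peaks over 17.0 kb from 13817570 to 13834554, was also the longest such chain of any nuclear chromosome in number of peaks, the next being 8 on IV and on V. Its main body was a row of 6 broad peaks that all 3 lists showed. Their midpoints were 1754 to 1992 bp apart in replicate 2 (mean 1838 ± 90.7 bp, SD over 5 spacings), 1649 to 1998 bp apart in replicate 1 (1809 ± 124 bp) and 1659 to 2131 bp apart in the whole-series list (1845 ± 188 bp). From left to right the 6 scored 19.8, 19.1, 29.9, 25.4, 16.7 and 27.0 in the whole-series list. In replicate 1 they scored 333, 242.5, 477, 378, 249 and 429, and in replicate 2 they scored 199.7, 226, 270, 204, 115 and 352. The fifth was thus the weakest in the whole-series and replicate 2 lists, and in replicate 1 only the second scored lower. The 6 supplied 6 of the 46 peaks of II found in both replicates, and 2 of the 10 highest scores. The weaker peaks of the cluster lay beside the first broad peak and beyond the last, at 13829225 to 13829496 (score 3.56) and 13834380 to 13834554 (8.27). Without this cluster the right section held 43.0% of the remaining 286 peaks (exact binomial p = 0.000683).

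**Figure D5:**
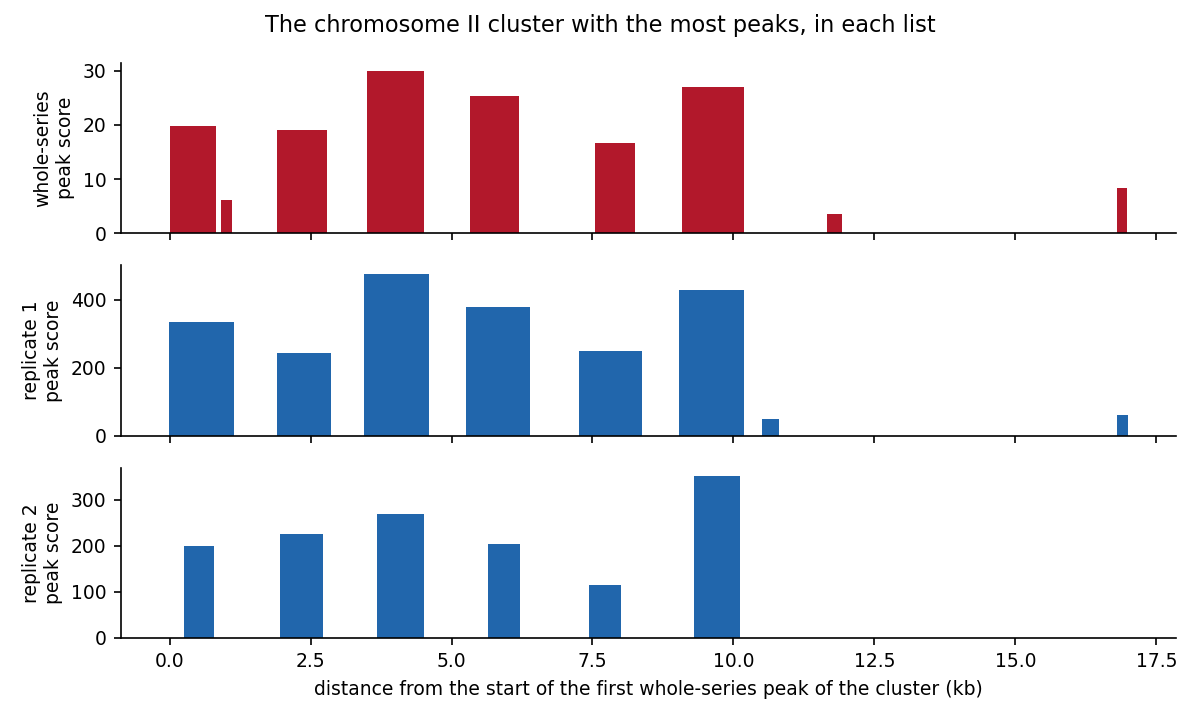
Peaks of the cluster from 13817570 to 13834554 in the whole-series, replicate 1 and replicate 2 lists: x axis, distance in kb from the start of the first whole-series peak; y axes, peak score as deposited, on a different scale in each panel; each bar spans 1 peak. The 6 broad peaks recur in every list at steps of about 1.8 kb, and the weaker peaks beyond them are absent from replicate 2.

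The other 4 of the 5 largest clusters had lower best scores. The 5 peaks from 11630015 to 11637238 scored 2.93 to 14.9, and replicate 1 overlapped 4 and replicate 2 overlapped 1. The 5 peaks from 11534772 to 11538200 scored 3.71 to 10.0, with 3 overlapped by replicate 1 and none by replicate 2. The 4 peaks from 14248084 to 14251856 scored 6.95 to 22.0, all overlapped by replicate 1 and 1 by replicate 2. The 4 peaks from 7809227 to 7815677 scored 2.23 to 3.91, and neither replicate listed any of them.

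Some places were missing from the whole-series list. It lacked 24 of the 174 replicate 1 peaks on II (13.8%, against 10.6% on the other chromosomes, Fisher's exact p = 0.238) and 5 of the 46 replicate 2 peaks (10.9% against 7.6%, Fisher's exact p = 0.554). The 24 had a median score of 59.9 in replicate 1, with a range of 50.1 to 136, against a median of 118 for those it took in. Of the 5, 4 were peaks of both replicates, named here after their values were seen, and their replicate 1 peaks were among the 24. They lay at 2716828 to 2717059 (118 in replicate 1 and 108 in replicate 2), 3290561 to 3290891 (75.9 and 54.8), 3994579 to 3994877 (136 and 64.5) and 13649971 to 13650229 (118 and 73.9). The nearest whole-series peaks were 4.70 to 50.1 kb away.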

How the data were processed

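Per the submitters' processing notes, reads were aligned with BWA to ce10 (version: not given in the sources used here). Per the file headers, the deposited positions refer to WormBase WS220. Peaks were called per sample with MACS, and in the whole-series list with MACS v2, per the files' source columns. The control, cutoffs and use of the replicates in that list were not given in the sources used here. Each peak carries 1 score, deposited by the authors, whose scale is not stated; scores were compared within a list and between lists by rank; replicate 1 and replicate 2, with 1 caller named for both, were also compared by value. Other deposited values (starts and ends) are 1-based.

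Groups came from the sample titles. Overlaps (at least 1 bp), 3 equal sections of the span by peak midpoint, clusters and widths came from scipy 1.17.1, pandas 2.3.3 and numpy 2.4.6 under Python 3.11.15, with plots by matplotlib 3.10.9. Overlaps, neighbours, clusters, merging, Clopper-Pearson intervals and the binomial test were checked on simulated data, and the sections and widths were not. The span ended at the last peak end of any list. Tests were two-sided exact binomial and Fisher's exact tests with Benjamini-Hochberg adjustment where stated. Intervals are 95% Clopper-Pearson or exact Poisson. The 8 mitochondrial peaks and the input samples were left out. No sequence or gene is given, since no genome of this build was used. The members, lists and rules were chosen with earlier results of these data known. The rule named the 10 highest scores, the 3 highest without and 3 lowest with both replicates, the 5 widest peaks, the 5 largest clusters, replicate peaks of at least 2 kb, the 3 fullest and emptiest windows, the 3 longest gaps and both end peaks. Alternatives covered the overlap rule, the list, the stronger 50%, merging within 1 kb, gap lengths, the central 50%, the outer 50 kb, base pairs and each replicate left out.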

Additional observations from a re-analysis of the deposited data

How the results depend on the processing

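The excess in the right section passed under 9 tested alternatives, from 37.5% without the window from 13 to 14 Mb to 58.7% for peaks found in both replicates; it did not pass for peaks found in neither (37.1%) or for those found in both without that window (38.7%). These settings were chosen after the data had been seen, and the last leaves 31 peaks. No setting left out the window from 11 to 12 Mb, which was as full as that from 13 to 14 Mb. The main comparisons of the central section with 33.3%, and those of peak number, score, neighbours and replicate overlap with the other chromosomes or the span, did not pass; the following lie on the other side of those references or of the threshold. The central share was 33.8% in the stronger 50% of the list, and the II share of peaks was 15.5% in replicate 2. With a cut at the 90th percentile, 9.83% of II peaks were above it. The share with a neighbour was 21.4%, 28.1% and 67.8% at gaps of 1, 2 and 20 kb, above the other chromosomes by less than counting error, and 18.7% with peaks within 1 kb merged, below their 24.4% (unadjusted Fisher's exact p = 0.047, and 0.423 adjusted over the 9 settings). Overlap by replicate 2 was 14.9% on II and 14.2% elsewhere by midpoints within 500 bp, 11.5% and 10.6% by reciprocal 50%, and 27.8% and 27.3% in the stronger 50%. In replicate 1, replicate 2, the stronger 50% and the peaks found in both, the median width was 391, 392, 279 and 449.5 bp, and rho of width and score 0.763, 0.771, 0.353 and 0.158. The cause of these shifts was not tested. The share of II peaks found by at least 1 replicate did not pass with either replicate left out. Without replicate 1 it was 16.3% on II and 16.3% on the other chromosomes, and without replicate 2 it was 54.6% and 57.9%. No paired analysis was possible because no test here compares groups of samples; no peak list of an input sample was analysed.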

Other observations

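In the replicate 1 list, 34 of 174 peaks on II had a neighbour within 1 kb (19.5%, interval 13.9 to 26.2), against 102 of 1000 on the other chromosomes (10.2%). This passed over 15 comparisons of lists and gaps (two-sided Fisher's exact p = 0.0117, adjusted), but the shares in the whole-series list, 21.4% and 19.1%, did not differ detectably (adjusted p = 0.929), nor did those in replicate 2, 13.0% and 14.4% (adjusted p = 1). Neighbours come in pairs or rows, so the 34 are not separate observations. They include the row of 6 broad peaks that begins at 13817562, each within 1 kb of the next. The share without that row was not tested.

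Peaks that replicate 2 alone shared with the whole-series list numbered 2 on II. They lay at 4299301 to 4299527 (score 9.26, with 52.9 in replicate 2) and at 11874672 to 11874923 (8.43, with 87.0 in replicate 2).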
